A study of Mus musculus with 2 samples.

Results

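Mir143, Mir145a, Mir214 and Mir199b are 4 of the 2202 miRNA genes counted in the adrenal gland of newborn mice. They were taken by gene name, as miRNAs known from smooth muscle and mesenchymal cells. No measured value enters that rule, but the set was proposed with earlier results of these data known. The tissue came from female B6CASTF1/J mice, a first-generation hybrid of the strains C57BL/6J and CAST/EiJ, at an age of 4 days. The series holds 1 group of 2 libraries, labelled as biological replicates 1 and 2 and as separate females, although both carry the same donor identifier. No treatment, mutation or other condition was labelled, so the data give levels of the 4 miRNAs, their order, and differences between 2 libraries. Whole adrenal tissue was used, and fewer cells of a type cannot be told apart from less of a miRNA per cell.

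A miRNA is cut from a hairpin in a longer primary transcript and guides silencing of mRNAs that match its seed, which is bases 2 to 8 of the mature strand. In mice, miR-143 and miR-145 are cut from a shared transcript and are known as miRNAs of vascular and visceral smooth muscle, where they favour the contractile state. miR-214 and miR-199a-2 lie in Dnm3os, a non-coding RNA of mesenchyme that mice need for normal skeletal growth. In the adrenal gland, cells of these kinds form the walls of vessels, the fibrous capsule and the stroma between the hormone-producing cells.

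The mature sequences are shown first, since the reads of the miR-199 genes cannot be understood without them. RefSeq sequences (GRCm38.p6) were found for 2 of the 4 genes, Mir214 and Mir199b, and none is shown for Mir143 and Mir145a. Capitals mark the seed.
miR-214-5p: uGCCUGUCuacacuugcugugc
miR-214-3p: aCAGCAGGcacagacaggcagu
miR-199b-3p: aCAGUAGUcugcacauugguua
miR-199a-3p: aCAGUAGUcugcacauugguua
miR-199a-5p: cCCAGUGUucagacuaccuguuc

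The 3p strands of miR-199a and miR-199b are the same molecule. That sequence is held by 3 hairpins, those of Mir199a-1, Mir199a-2 and Mir199b. The miR-199a-5p sequence is held by 2 hairpins, those of Mir199a-1 and Mir199a-2. The hairpin of Mir199b carries the matching stretch at its bases 26 to 48 with 1 substitution, C10U, counted from 1 at the 5′ end of miR-199a-5p, and no other hairpin of the table holds it. In the next line the capital marks that base.
Mir199b stretch: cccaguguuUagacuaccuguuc

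Reads that mapped to several places were counted for no gene. A read of exactly the sequence of miR-199a-3p, miR-199b-3p or miR-199a-5p matches several of these hairpins. The counts of the miR-199 genes hold uniquely mapped reads alone and do not give the level of these mature miRNAs. The hairpins below show how much sequence the 3 genes have in common. Capitals mark bases inside a run of at least 18 bases that another hairpin also holds.
Mir199b hairpin: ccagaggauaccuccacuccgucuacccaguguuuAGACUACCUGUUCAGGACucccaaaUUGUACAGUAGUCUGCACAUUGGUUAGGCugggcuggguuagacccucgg
Mir199a-2 hairpin: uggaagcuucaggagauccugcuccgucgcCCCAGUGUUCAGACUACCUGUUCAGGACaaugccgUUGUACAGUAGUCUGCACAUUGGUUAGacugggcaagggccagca
Mir199a-1 hairpin: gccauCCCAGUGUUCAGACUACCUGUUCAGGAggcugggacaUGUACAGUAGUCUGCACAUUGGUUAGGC

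Among the hairpins no such limit was found for the other 3 members, and matches elsewhere in the genome were not searched. Every run of 22 bases in the hairpins of Mir143 (42 runs), Mir145a (49) and Mir214 (89) was found in no other hairpin of the table. For Mir199b this held for 81 of 89 runs, for Mir199a-2 for 77 of 89 and for Mir199a-1 for 36 of 49. The longest run shared with another hairpin was 28 bases for Mir199b and 13 for Mir214. Mir145a shared 17 bases with Mir145b, its relative (chosen after its values were seen), which had 0 reads in replicate 1 and 4 in replicate 2. Among the RefSeq mature miRNAs searched, which left out chromosome 18, the seed of miR-214-3p was shared by miR-761 alone. Mir761 (named for its seed) had 0 reads in both libraries. A count of 0 allows a share of up to 6.05e-05% of the miRNA reads in replicate 1 and 6.66e-05% in replicate 2.

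**Figure D1:**
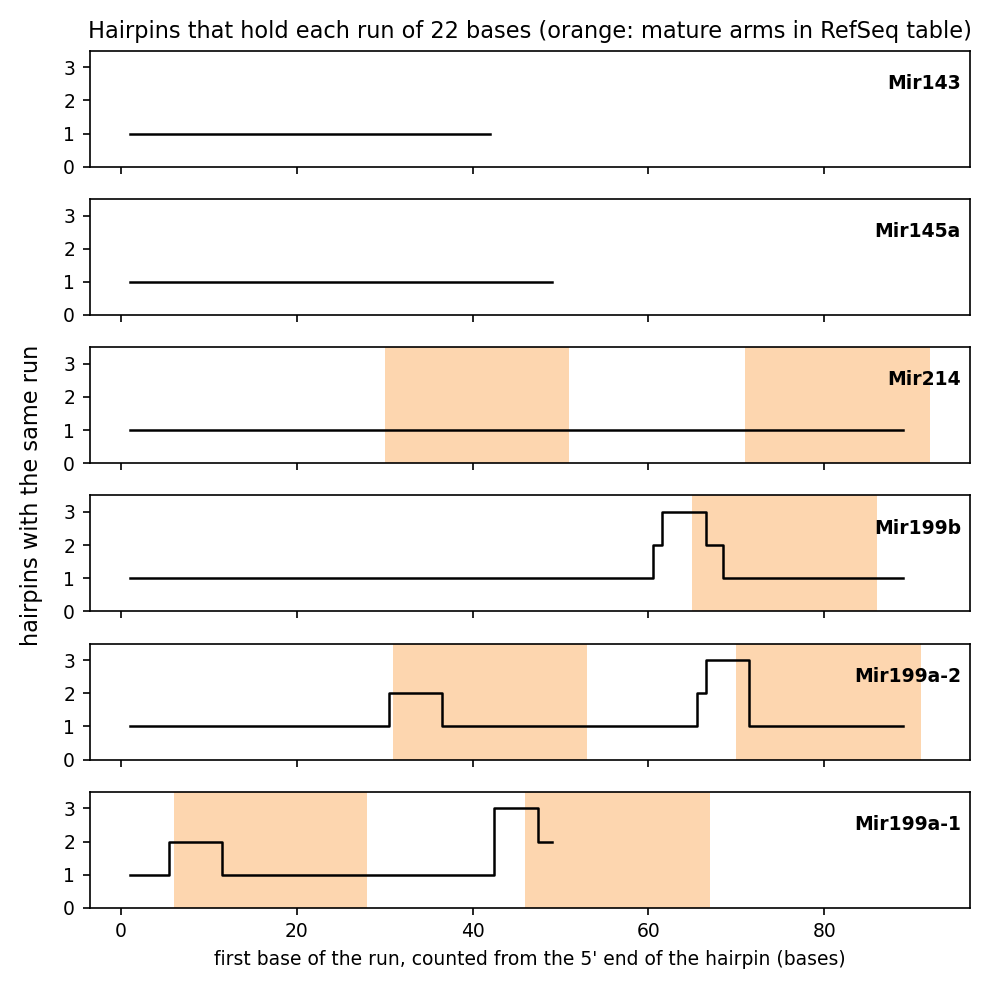
Number of miRNA hairpins (y axis) that hold each run of 22 bases, for 4 members and the Mir199a genes. The x axis gives the first base of the run along the hairpin (bases from the 5′ end). Orange bands are mature strands listed by RefSeq, which was not searched on chromosome 18 (Mir143 and Mir145a). The line stays at 1 hairpin along Mir143, Mir145a and Mir214, and reaches 3 hairpins at the 3p strand of the miR-199 genes.

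The genes lie at 3 places in the genome (mm10). Mir143 (ENSMUSG00000065445.3) lies on the minus strand of chromosome 18, from 61649196 to 61649258, and Mir145a (ENSMUSG00000065592.2) from 61647825 to 61647894, with 1301 bases between them. GENCODE M21 places no other gene over either hairpin. Mir214 (ENSMUSG00000065516.1) lies on the plus strand of chromosome 1, from 162223368 to 162223477, within an exon of Dnm3os and opposite an intron of the dynamin gene Dnm3. Mir199a-2 lies on the same strand, likewise within an exon of Dnm3os, with 5444 bases between the hairpins. Mir199b (ENSMUSG00000092807.1) lies on the plus strand of chromosome 2, from 32318460 to 32318569, opposite an intron of Dnm1. Mir199a-1, on the minus strand of chromosome 9 from 21496495 to 21496564, lies opposite an intron of Dnm2, so that each miR-199 gene stands antisense to a gene of the dynamin family. None of the 4 members overlaps a miRNA gene on the other strand, and the opposite strand held 1 read at Mir214 in replicate 1 and 0 at each of the others in both libraries.

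Replicate 1 held 4960537 reads on the annotated strand of miRNA genes, and replicate 2 held 4506482. Levels are given as CPM, reads per 1000000 of these. Each read was taken to cover a whole mature miRNA, which was not examined. Reads are therefore compared between genes without a correction for hairpin length unless one is named. The 4 members had 151329 reads in replicate 1, or 3.05% of the miRNA reads (95% Wilson interval 3.04 to 3.07), and 169860 in replicate 2, or 3.77% (3.75 to 3.79). The mean share was 3.41% ± 0.508 (SD, n = 2). All 4 passed the minimum of 10 reads in both libraries.

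Mir143 held most of these reads. It had 128218 reads in replicate 1 and 158323 in replicate 2, or 25848 CPM (95% exact interval 25708 to 25988) and 35132 CPM (34962 to 35303), with a mean of 30489.9 CPM ± 6565 (SD, n = 2). It ranked 8 among all miRNA genes in replicate 1 and 9 in replicate 2. Its share of the reads of the 4 members was 84.7% in replicate 1 and 93.2% in replicate 2.

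Mir145a, the neighbour of Mir143, was far lower. It had 3293 reads in replicate 1 and 8133 in replicate 2, or 664 CPM (641 to 687) and 1805 CPM (1766 to 1844), with a mean of 1234 CPM ± 807 (SD, n = 2). It ranked 109 in replicate 1 and 59 in replicate 2.

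Mir214 was the member that differed most between the libraries. It had 18060 reads in replicate 1 and 2444 in replicate 2, or 3641 CPM (3588 to 3694) and 542 CPM (521 to 564), with a mean of 2092 CPM ± 2191 (SD, n = 2). The SD was thus larger than the mean. Its rank was 46 in replicate 1 and 112 in replicate 2.

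Mir199b had 1758 reads in replicate 1 and 960 in replicate 2, or 354 CPM (338 to 371) and 213 CPM (199.8 to 227), with a mean of 284 CPM ± 99.96 (SD, n = 2). By these uniquely mapped reads alone, its rank was close in both libraries, at 147 in replicate 1 and 157 in replicate 2. Its relatives had fewer uniquely mapped reads. Mir199a-2 had 146 reads in replicate 1 and 85 in replicate 2, and Mir199a-1 had 8 in replicate 1 and 0 in replicate 2. The Mir199b stretch matching miR-199a-5p is in no other hairpin, whereas both mature sequences of the Mir199a genes are in several. These counts therefore do not rank the levels of the miR-199 genes.

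Mir143 stood highest and Mir199b lowest of the 4 in both libraries, whereas Mir214 and Mir145a changed places. The place of Mir199b is one of uniquely mapped reads, since reads that match several hairpins are left out of its count. With SDs of this size over 2 libraries, the means of Mir214 (2092 CPM) and Mir145a (1234 CPM) did not differ beyond their spread. Mir145a exceeded Mir199b as counted in both libraries, with means apart by little more than their SDs together. The mean of Mir143 exceeded that of Mir214 by more than both SDs together.

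**Figure D2:**
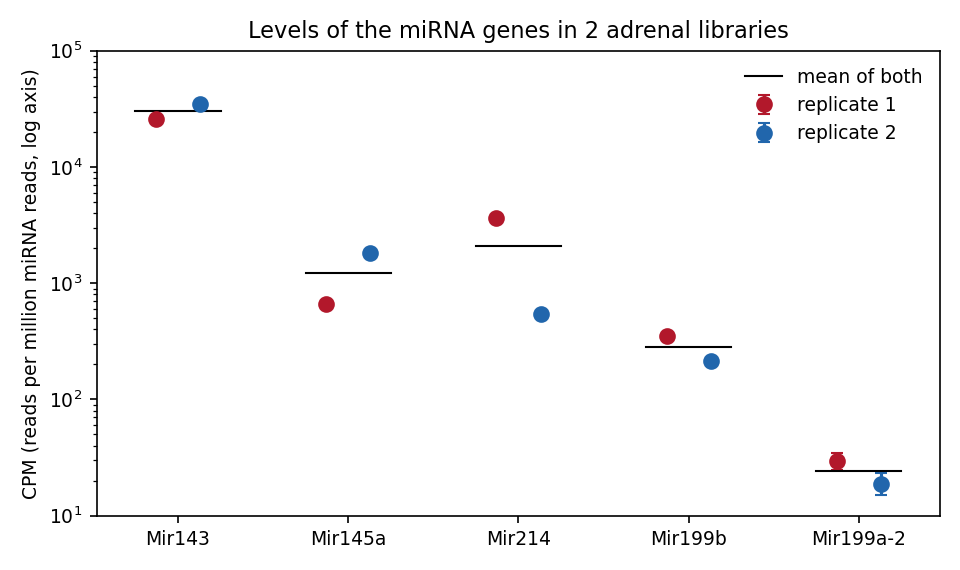
CPM on a log axis for Mir143, Mir145a, Mir214, Mir199b and Mir199a-2 in replicate 1 (red) and replicate 2 (blue); error bars are 95% exact counting intervals, mostly smaller than the points, and black lines are the mean of both. Mir214 lies above Mir145a in replicate 1 and below it in replicate 2.

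Differences between the libraries ran in opposite directions within the set. Log2 ratios are of replicate 1 over replicate 2, after scaling by TMM, which corrects library size for differences in composition. Mir214 was 6.48-fold higher in replicate 1 (log2 ratio 2.70, 95% exact interval 2.63 to 2.76), and Mir199b was 1.61-fold higher there (0.68, 0.57 to 0.80). Mir145a was 2.82-fold higher in replicate 2 (-1.49, -1.55 to -1.44), and Mir143 was 1.41-fold higher there (-0.49, -0.50 to -0.48). The split of each gene's reads between the libraries was tested by an exact binomial test, two-sided, with Benjamini-Hochberg adjustment over all 377 tested genes. By this test 4 of 4 members differed between the libraries. The adjusted p was 1.0e-32 for Mir199b and too small to be written as a number for the other 3.

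That test covers counting error alone, and 67.1% of all tested genes passed it. Of the members, 2 were higher in replicate 1, where 35.3% of all tested genes were called, and 2 in replicate 2, where 31.8% were. The test compares these libraries and not conditions. Set against the general spread of the pair with edgeR's exact test, 0 of 4 members passed, beside 1.86% of the tested genes. At an unadjusted p under 0.05 the count was 1 of 4, beside 6.63% of the tested genes. The 1 member was Mir214, with an unadjusted p of 0.0055 and an adjusted p of 0.17 by edgeR's exact test. The dispersion in that test comes from the same 2 libraries, as a common biological coefficient of variation of 0.436.

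The size of the ratios places the members at different points of the general spread. A log2 ratio at least as far from 0 as that of Mir214 was held by 12 of the 377 tested genes (3.18%, itself included). For Mir145a the number was 32 (8.49%), for Mir199b 117 (31.0%) and for Mir143 171 (45.4%). The ratio of Mir214 ranked 9 from the end towards replicate 1, and that of Mir145a ranked 8 from the end towards replicate 2.

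**Figure D3:**
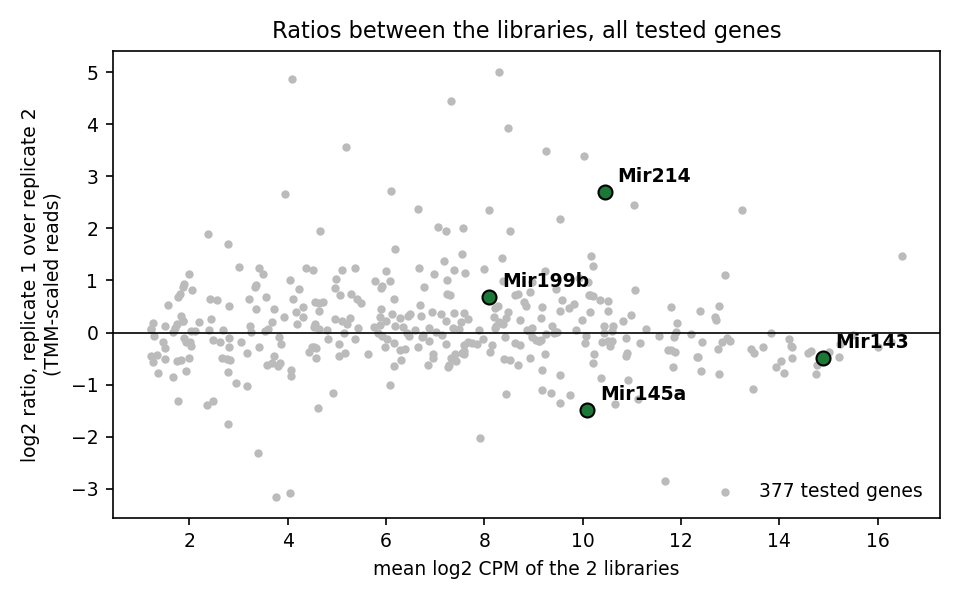
Log2 ratio of replicate 1 over replicate 2 (y axis, TMM-scaled reads) against mean log2 CPM (x axis) for the 377 tested genes (grey), with the 4 members in green. Mir214 and Mir199b lie above 0 and Mir143 and Mir145a below it, with Mir214 at 2.70 and Mir145a at -1.49.

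Ratios of a gene to another within a library need no scaling. Mir143 and Mir145a, which in mice are cut from a shared transcript, had 38.9 reads of Mir143 for each read of Mir145a in replicate 1 (95% exact interval 37.6 to 40.3) and 19.5 in replicate 2 (19.0 to 19.9). Per base of annotated hairpin (63 bases for Mir143 and 70 for Mir145a) the ratios were 43.3 and 21.6. The ratio was 2.00-fold higher in replicate 1 (log2 difference 1.00, 95% interval 0.94 to 1.06, Fisher's exact test, two-sided, adjusted over 6 pairs, p = 1.0e-257). Both genes were higher in replicate 2 in CPM, but to unequal degrees.

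Mir214 and Mir199b, whose hairpins have the same length, both stood higher in replicate 1, again to unequal degrees. There were 10.3 reads of Mir214 for each of Mir199b in replicate 1 (9.78 to 10.8) and 2.55 in replicate 2 (2.36 to 2.75). Reads of exactly the miR-199b-3p sequence match several hairpins and are left out of the Mir199b count, so these are ratios of uniquely mapped reads alone. The ratio was 4.04-fold higher in replicate 1 (log2 difference 2.01, 1.88 to 2.14, adjusted p = 1.8e-185 by the same exact test).

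The largest change of ratio was between the loci. There were 0.182 reads of Mir145a for each of Mir214 in replicate 1 (0.176 to 0.189) and 3.33 in replicate 2 (3.18 to 3.48), a log2 difference of -4.19 (-4.27 to -4.11). For Mir143 to Mir214 the ratio was 7.10 in replicate 1 and 64.8 in replicate 2. Each of the 6 pairs of members had a ratio that differed between the libraries by more than counting error (95% interval without 0), as did 65.7% of all 70876 pairs of tested genes, so this is a property of these libraries in general.

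Between the uniquely mapped reads of Mir199b and Mir199a-2 no change of proportion was detectable at this depth. Mir199b to Mir199a-2 gave 12.0 reads in replicate 1 (10.2 to 14.4) and 11.3 in replicate 2 (9.04 to 14.3), with a log2 difference of 0.09 and an interval of -0.31 to 0.49 that includes 0. These genes lie on different chromosomes. Mir214 to Mir199a-2, which share the host Dnm3os, gave 124 in replicate 1 (105 to 147) and 28.8 in replicate 2 (23.2 to 36.1), with a log2 difference of 2.11 (1.71 to 2.50). These ratios with Mir199a-2 were added after the values were seen and carry no test. Both miR-199 counts exclude reads that map to several places, but not alike. Both mature sequences of Mir199a-2 are in other hairpins too, whereas the Mir199b stretch matching miR-199a-5p is not. The size of these ratios therefore does not compare levels.

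**Figure D4:**
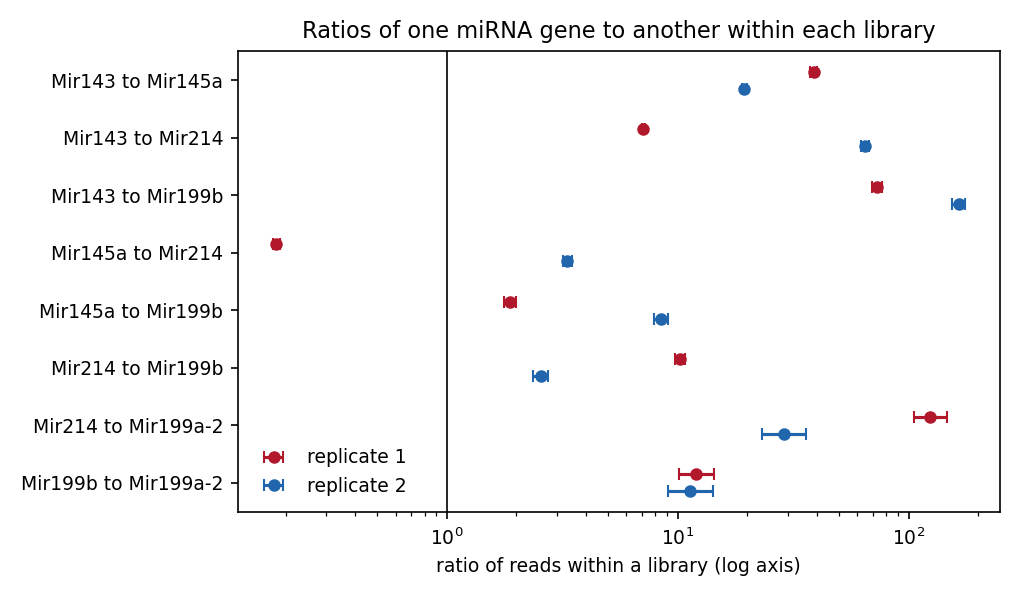
Reads of one gene per read of another within replicate 1 (red) and replicate 2 (blue), on a log axis with 95% exact counting intervals, for 6 pairs of members and the ratios to Mir199a-2. Mir145a to Mir214 lies at 0.182 in replicate 1 and 3.33 in replicate 2, whereas the intervals of Mir199b to Mir199a-2 overlap.

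Genes with the most similar levels in both libraries were found by distance on the log2 CPM scale, among the other 376 tested genes. With 2 libraries this describes level and ratio only. Nearest to Mir143 were Mir23a (distance 0.18), Mir322 (0.21) and Mir10b (0.27), all abundant miRNAs. Nearest to Mir145a was Mir380 (0.07), at 635 CPM in replicate 1 against 1769 CPM in replicate 2, followed by Mir540 (0.54) and Mir341 (0.58). Mir214 had no close match: Mir195a (0.79), Mir15a (0.85) and Mir15b (0.96), relatives within the miR-15 family, were the nearest. Mir195a reached 3448 CPM in replicate 1, against 316 CPM in replicate 2. Nearest to Mir199b were Mir196a-2 (0.23), Mir376b (0.28) and Mir338 (0.30). The hairpins of Mir23a, Mir196a-2 and Mir376b share runs of 18 bases with others, so that their counts hold uniquely mapped reads alone.

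With the miR-199a genes added, the mesenchymal and smooth muscle list had 6 genes, of which 5 were tested. By the binomial test replicate 1 was higher for 3 of these, beside 35.3% of all tested genes, and replicate 2 for 2, beside 31.8%. The median log2 ratio was 0.59, against 0.04 over all tested genes. By edgeR's exact test 0 of the 5 passed, beside 1.86% of all tested genes. At an unadjusted p under 0.05 it was Mir214 alone, beside 6.63%. Mir199a-2 was the third, 1.51-fold higher in replicate 1 (adjusted p = 0.0048 by the exact binomial test).

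A second list held miRNAs studied in stromal cells and fibrosis. By the binomial test replicate 1 was higher for 5 of its 7 genes and replicate 2 for 1, beside 35.3% and 31.8% of all tested genes. The median log2 ratio was 0.36. By edgeR's exact test 0 of the 7 passed, and 0 had an unadjusted p under 0.05, beside 1.86% and 6.63% of all tested genes. Mir21a, known from fibroblast activation, was the most abundant of the list, at 18470.2 CPM in replicate 1 against 19306 CPM in replicate 2. It was called 1.08-fold higher in replicate 2 by the exact binomial test. Mir29a, which represses collagen genes, reached 1579 CPM in replicate 1, against 781 CPM in replicate 2. It was 1.95-fold higher in replicate 1. Mir130a was 1.23-fold and Mir29c 2.21-fold higher in replicate 1. The gene with no call was Mir29b-2, with 20 reads in replicate 1 and 15 in replicate 2 (chosen after its values were seen).

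Marker lists of other cell types also held differences between the libraries. The binomial test called 7 of 7 tested epithelial genes and 3 of 3 tested striated muscle genes, beside 67.1% of all tested genes. By edgeR's exact test 5 of the 7 epithelial genes passed and 0 of the 3 striated muscle genes, beside 1.86% of all tested genes. At an unadjusted p under 0.05 the counts were 6 epithelial and 2 striated muscle genes, beside 6.63%. The directions that follow stand beside 35.3% of all tested genes called higher in replicate 1 and 31.8% in replicate 2. Epithelial miRNAs took 0.471% of the reads in replicate 1 and 0.116% in replicate 2, with 6 of 7 genes higher in replicate 1, as was Mir214. The remaining epithelial gene, Mir203, was 2.25-fold higher in replicate 2. Endothelial miRNAs took 17.1% in replicate 1 and 7.51% in replicate 2, with 2 of 4 tested genes higher in each. Mir126a alone was 2.77-fold higher in replicate 1. Erythroid miRNAs took 0.106% in replicate 1 and 0.0287% in replicate 2, with 2 genes higher in replicate 1 and 1, Mir486, higher in replicate 2. The 3 tested striated muscle genes were higher in replicate 2, as were Mir143 and Mir145a. All 10 genes of that list took 6221 reads (0.125%) in replicate 1 and 39153 (0.869%) in replicate 2, all but a small part of it from Mir206, which was 7.21-fold higher in replicate 2. Of these 10 genes, 6 share runs with other hairpins. Among the untested ones Mir1b (chosen after its values were seen) had 18 reads in replicate 1 and 4 in replicate 2.

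The summed shares of neuroendocrine and leukocyte miRNAs differed less. The neuroendocrine list, led by Mir375, took 4.10% in replicate 1 and 4.63% in replicate 2. By the binomial test 3 of its 6 genes were nevertheless higher in replicate 1 and 2 in replicate 2, with a median log2 ratio of 0.15. The leukocyte genes found by name took 0.126% in replicate 1 and 0.155% in replicate 2, with 3 of 4 higher in replicate 2 and 1 in replicate 1. Mir146a was also planned for that list but was not found under that name, so these values leave it out. A tested gene named Mir146 (given here for its name) had a log2 ratio of 0.02 and stands in no list. Of all tested genes, 67.1% were called, 35.3% higher in replicate 1 and 31.8% in replicate 2. The part of these cell types in the ratios of the 4 members was not tested.

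**Figure D5:**
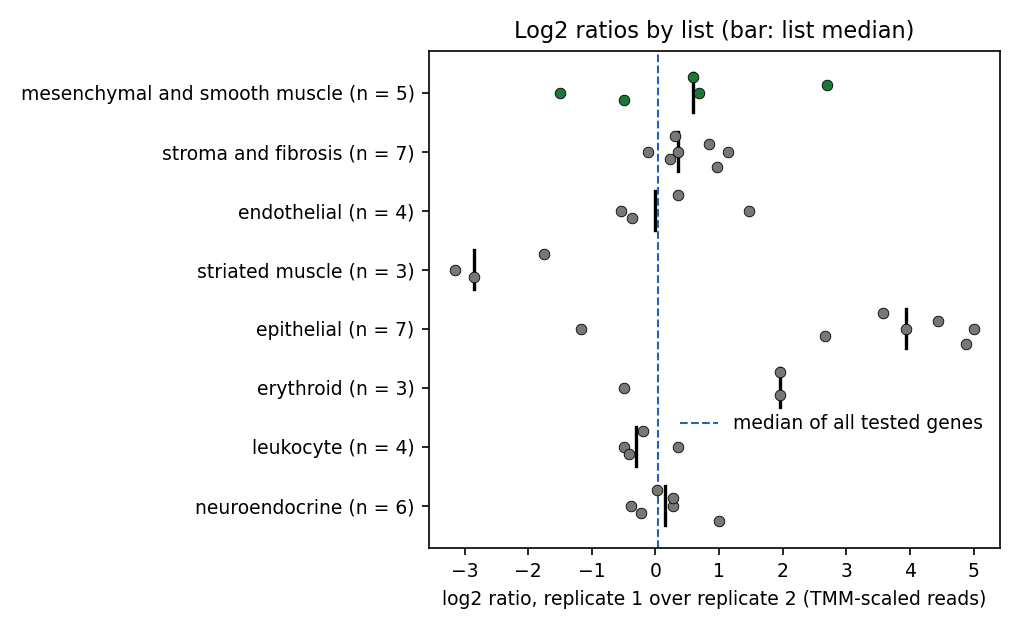
Log2 ratios of replicate 1 over replicate 2 (x axis, TMM-scaled reads) for the tested genes of each list (rows), with black bars at list medians and a dashed line at the median of all tested genes, 0.04. The mesenchymal and smooth muscle genes (green) run from -1.49 to 2.70, the epithelial genes lie mostly to the right and the striated muscle genes to the left.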

How the data were processed

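The deposited tables hold raw read counts, as whole numbers, for each miRNA gene of a library. Genes followed GENCODE M21 on mm10, per the file headers. Which aligner and counter were used is not given in the sources used here. The tables have 3 count columns without names, which the values show to be reads on either strand, the annotated strand and the opposite strand; the annotated strand was used. The 4 leading rows of reads without a gene were kept out of library sizes. They held 57.6% of the reads in replicate 1 and 60.1% in replicate 2, of which reads mapped to several places made up 25.9% and 27.8% of all reads.

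Genes with at least 10 reads in both libraries were tested (377). TMM factors over these genes (edgeR 4.0.16) were 1.02 for replicate 1 and 0.982 for replicate 2. Reads were compared between libraries by an exact two-sided binomial test, by edgeR's exact test with the common dispersion of a design with an intercept alone, and within pairs of members by Fisher's exact test with Woolf intervals, with calls at an adjusted p under 0.05. The quasi-likelihood test has no residual degrees of freedom with 1 library a side. Intervals cover counting error only, since no molecular identifiers separate PCR copies. Where the labels' donor identifier is shared, the spread between libraries may be technical.

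Runs of 18 bases were searched among the hairpins of the 2202 genes, not in the whole genome, which was not used here. The members and the 8 lists were chosen with earlier results of these data known. Named were the members, the miR-199a genes, the 3 genes nearest in level to each member and up to 4 abundant genes of each list; exceptions are marked in the text, and Mir761 was named for its seed.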

Additional observations from a re-analysis of the deposited data

How the results depend on the processing

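The 4 members kept the direction of their ratio and their side of both thresholds under total reads, DESeq2 size factors, TMM over all genes, no read minimum, a mean of at least 100 reads and reads on either strand, and by edgeR also with tagwise dispersion. Log2 ratios ran from -0.57 to -0.44 for Mir143, -1.57 to -1.44 for Mir145a, 2.62 to 2.75 for Mir214 and 0.60 to 0.73 for Mir199b, and the adjusted p of Mir214 by edgeR's exact test from 0.16 to 1.0. By edgeR's exact test, 7 of all tested genes passed, against 4 with no minimum and 0 with tagwise dispersion. Per 1000000 of all reads in the library, which is a larger total, Mir143 averaged 12490, Mir145a 501, Mir214 880 and Mir199b 118, and the 4 members 1.40% of the reads. Without hairpins that share runs in the total, these were 45314, 1858, 2993 and 415 CPM, and 5.06%. Mir199b is itself such a hairpin, so its reads were set against a total that left them out. With reads on either strand the share was 4.04%, of a total that loses reads of overlapping genes. With reads on either strand, 1 endothelial gene was higher in replicate 1, and of the erythroid genes 1 was higher in replicate 1 and 0 in replicate 2; with no minimum 1 striated muscle gene was higher in replicate 1. Leaving out either replicate gives the level of the other and no ratio. No paired analysis was possible because the series holds a single group. Depth limits Mir145b, with 0 and 4 reads in replicates 1 and 2. For Mir199a-1, with 8 and 0, reads of its exact mature sequences match other hairpins too and are not counted at any depth.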
